A study of Mus musculus with 9 samples.

Results

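The genes described here are the collagens and a set of stromal matrix genes as measured in the jejunum, the middle section of the small intestine. They were taken from the gene symbols of the arrays: every symbol that reads as a collagen chain, such as Col1a1, and 15 named genes, which are fibronectin, SPARC, small proteoglycans, fibrillin, fibulins, laminin chains, nidogen, vimentin, the PDGF receptor alpha chain and 2 inhibitors of metalloproteinases. The rule took 50 of 33012 probes, which stood for 47 of 15674 named genes, 34 of them collagens. Lamb1 and Nid1 had no probe under those symbols and were not analysed here. Total RNA came from male mice of the outbred stock OF1, aged 7 weeks, from generation 3 of a feeding trial in which each generation received the same feed, with 3 mice on feed B (mice 7, 8 and 10), 3 on feed K (mice 1, 3 and 4) and 3 on feed G (mice 4, 8 and 11). Each mouse was hybridized to 1 single-colour Applied Biosystems array, which reads long oligonucleotide probes by chemiluminescence. The labels do not say which feed was a control. The time of day of sampling was not randomized, and its part in these values was not tested.

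Collagens are trimers of alpha chains. Fibrillar collagens such as types I, III and V build the tension-bearing fibrils of the lamina propria and submucosa, whereas type IV collagen forms the sheet-like network of basement membranes under the epithelium and around vessels and muscle cells. Small leucine-rich proteoglycans sit on the fibrils and regulate their assembly, and fibronectin, SPARC and the fibulins connect fibrils, elastic fibres and cells. In the gut wall most of these genes are expressed by fibroblasts and other mesenchymal cells, which are a minority beside the epithelium. The arrays measured bulk tissue, so that fewer cells of a type and less RNA per cell cannot be told apart.

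The values below are quantile-normalized signals on the log2 scale, in which a difference of 1 is a 2-fold difference. They compare mice for 1 gene. The level of a probe was not set against that of another gene's probe, except in the classes of signal and the summed marker signals below. In such a sum the brightest probes weigh most. Detection on an array means a ratio of signal to noise of 3 or more. Between 33.7% and 48.1% of all probes and 24 to 32 of the 50 probes of the matrix genes were detected per array. Detection differed by feed. The ranges were 33.7% to 43.6% of all probes on feed B, 41.2% to 47.6% on feed K and 46.4% to 48.1% on feed G. For the matrix genes they were 24 to 28, 24 to 30 and 29 to 32 probes. The part of this in the detection of single genes by feed was not tested. Of the 450 spots of the matrix genes, 251 were detected, 143 had a ratio below 1, and 3 had failed the scanner's quality check. In all of these 143 spots the deposited signal was equal to the deposited standard deviation, so that a value there describes noise. The 4 epithelial markers with a probe (Cdh1, Cdh17, Lgals4 and Fabp2) were detected on all 9 arrays, as were Actg2, Myh11, Tagln and Des of smooth muscle. For exocrine pancreas, a neighbouring organ, 3 of 6 listed markers had a probe, and none of these was detected on 3 or more arrays.

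One value stands apart for a known reason and is given before the results. Col25a1, a transmembrane collagen best known from neurons, has 2 probes. The brighter probe was detected on all 9 arrays, with log2 signals of 16.24, 16.09 and 16.26 on feed B, 16.11, 16.16 and 15.88 on feed K and 16.12, 16.11 and 16.21 on feed G. The dimmer probe was detected on 3 arrays and lay between 5.98 and 7.30, and its spot on the array of mouse K4 had failed. The average over usable probes therefore was 15.88 in K4, which rests on the brighter probe alone, against 11.05 to 11.71 in the other mice. For the brighter probe by itself, K4 was the lowest mouse, and the signal ranged over 1.30-fold with an SD of 0.11. With the failed spot kept, the average of K4 was 10.52 and the SD was 0.35 instead of 1.54. Of the 1456 genes with several probes, 245 had at least 1 average of this kind, and Col25a1 was the only one of them among the matrix genes. It is left out of the plots by gene, and its feed differences are given both ways. Its detection on all 9 arrays rests on the brighter probe, and which of the 2 probes reports the gene was not tested.

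**Figure D1:**
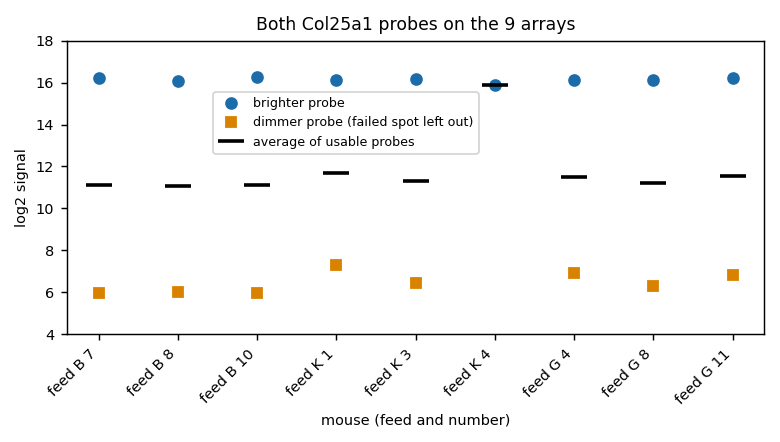
Log2 signal of the brighter and the dimmer Col25a1 probe in each of the 9 mice, with the average of the usable probes as a black bar. The averages lie between 11.05 and 11.71 except in mouse K4, where the spot of the dimmer probe had failed and the average of 15.88 is the value of the brighter probe.

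All 9 arrays detected 22 of the 47 genes (46.8%), compared with 37.6% of all genes. Another 6 were detected on 3 to 8 arrays, 8 on 1 or 2, and 11 (23.4%) on none, compared with 20.5% of all genes. Among the 10 fibrillar collagens, Col1a1, Col1a2, Col3a1, Col5a1, Col5a2 and Col5a3 were detected on all arrays. Col2a1 and Col11a1, chains of cartilage collagens, were detected on 2 and 1 arrays, and Col11a2 and Col27a1 on none. Of the 9 collagens of basement membranes and their zones, Col4a1, Col15a1 and Col7a1 were detected on all arrays, Col4a2 on 8 and Col18a1 on 7. The other chains of type IV collagen, which are restricted to basement membranes of organs such as kidney and lung or of smooth muscle, were detected on 2 arrays (Col4a3 and Col4a5) or none (Col4a4 and Col4a6). The Col4a4 probe also carries a further gene symbol.

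Among the fibril-associated collagens, which decorate fibrils without forming them, Col14a1 and Col16a1 were detected on all arrays, Col12a1 and Col19a1 on 1, and the cartilage genes Col9a1, Col9a2 and Col9a3 on none. Col6a1 and Col6a2, chains of the microfibrils of type VI collagen, were detected on all arrays, Col8a1 on 1, and Col10a1, the collagen of hypertrophic cartilage, on none. Decorin (Dcn) was detected on all arrays, lumican (Lum) on 8 and biglycan (Bgn) on 5. Fn1, Sparc, Fbln1, Timp2, Timp3 and Vim were detected on all arrays, whereas Fbln2 was detected on 4 and Fbn1, the fibrillin of elastic microfibrils, and Lama2, a laminin of muscle basement membranes, on none. Pdgfra, a receptor that marks intestinal fibroblasts, was detected on 2 arrays, 1 each of feeds K and G, and the fibroblast marker Thy1 on 1 array. Col1a1, Col1a2, Col3a1 and Dcn were thus measured in all mice although these surface markers of fibroblasts were mostly below the detection limit. An undetected gene is not shown to be absent, since its probe may bind poorly.

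The first comparison was between the feeds. No matrix gene passed the test of feed after adjustment over all genes, and neither did any other gene. The moderated F test of limma was run over the 9652 genes detected on at least 3 arrays, among them 28 matrix genes, of which 18 are collagens. At an adjusted p below 0.05 it called 0 of 28 matrix genes, where percent called over all genes was 0, and the smallest adjusted p of a matrix gene was 0.897. At an unadjusted p below 0.05, it called 1 of 28 (3.57%), compared with 5.37% of all genes. An exact permutation test by gene, over the 280 splits of the mice, gave p below 0.05 for 3 matrix genes, Col1a2 (exact permutation p = 0.0214), Col7a1 (exact permutation p = 0.0357) and Col16a1 (exact permutation p = 0.0393). That is 10.7% of 28, compared with 5.09% of the 9556 genes it was run on. None passed after adjustment over these genes. The 2 tests order genes differently. Lum had p = 0.0631 in the F test of limma and exact permutation p = 0.161, and Col1a2 had p = 0.0961 in the F test of limma. The smallest p the exact permutation test can give is 0.00357.

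Lumican, which spaces collagen fibrils, had the largest difference from feed B apart from the Col25a1 average set aside above. Its log2 signals were 9.51, 9.03 and 8.85 on feed B, 8.94, 7.85 and 7.37 on feed K, and 7.84, 8.69 and 7.92 on feed G. All mice of feed B were above all mice of feed G, whereas mouse K1 lay among those of feed B. The mean was lower on feed K than on feed B by 1.08 ± 0.42 (SE; 95% interval of the difference -2.05 to -0.10; limma, unadjusted p = 0.0343, adjusted p = 0.786) and lower on feed G by 0.98 ± 0.42 (interval -1.96 to -0.0076; unadjusted p = 0.0486, adjusted p = 0.858). With median scaling the differences were -0.64 (unadjusted p = 0.193) and -0.47 (unadjusted p = 0.331), and in the authors' assay-normalized values -0.77 (unadjusted p = 0.147) and -0.73 (unadjusted p = 0.169), so that both lost their unadjusted call. The median of all genes was 0.41 and 0.53 above feed B with median scaling, and 0.21 and 0.30 above it in the authors' values. Lum was detected in all mice of feeds B and G and in 2 of 3 on feed K.

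Decorin, which lies beside Lum in the genome (Dcn at chr10:97479500-97518163, Lum at chr10:97565501-97572703, GRCm38.p6), binds type I collagen. Its signals were 15.33, 15.13 and 15.44 on feed B, 14.86, 14.62 and 14.78 on feed K, and 14.64, 15.24 and 14.32 on feed G. The mice of feed K were all below those of feed B, and mouse G8 was within the range of feed B. The mean on feed K differed from that on feed B by -0.55 ± 0.25 (SE; limma, unadjusted p = 0.0606, adjusted p = 0.787) and the mean on feed G by -0.57 ± 0.25 (unadjusted p = 0.0535, adjusted p = 0.858). With median scaling these were -0.18 and -0.031, where the median of all genes was 0.41 and 0.53 above feed B. The difference of feed G was -0.36 without mouse G11.

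Type I collagen, the main fibril collagen, is made of 2 chains of Col1a1 and 1 of Col1a2. Col1a2 had signals of 13.79, 13.71 and 13.76 on feed B, 13.58, 13.32 and 13.31 on feed K and 13.32, 13.53 and 13.22 on feed G. Every mouse of feed B was above every mouse of the other feeds, by a small amount. The mean on feed K was lower by 0.35 ± 0.17 (SE; limma, unadjusted p = 0.0770, adjusted p = 0.797) and on feed G by 0.40 ± 0.17 (unadjusted p = 0.0493, adjusted p = 0.858). Both turned with median scaling, to 0.059 and 0.13 above feed B, where the median of all genes was 0.41 and 0.53 above it. For Col1a1 the signals were 12.28, 11.97 and 12.24 on feed B, 12.36, 11.39 and 11.76 on feed K, and 11.35, 12.14 and 11.15 on feed G. The feeds overlapped, and the difference of feed G from feed B was -0.62 ± 0.33 (SE; limma, unadjusted p = 0.0987, adjusted p = 0.879), or -0.063 with median scaling and -0.28 in the authors' assay-normalized values.

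Col7a1 had its highest values on feed G and Col16a1 its lowest on feed K, without a call after adjustment. Col7a1 encodes the collagen of anchoring fibrils, which fix the epithelial basement membrane to the stroma. Its signals were 8.31, 8.84 and 8.43 on feed B, 8.61, 8.64 and 8.60 on feed K, and 9.01, 8.88 and 9.17 on feed G. All mice of feed G were above those of both other feeds, by 0.50 ± 0.19 (SE) over the mean of feed B (limma, unadjusted p = 0.0332, adjusted p = 0.843) and by 0.40 ± 0.19 over that of feed K (unadjusted p = 0.0716, adjusted p = 0.960). With median scaling the first of these was 0.99, where the median of all genes was 0.53. Mouse G8 (8.88) and mouse B8 (8.84) lay closer together than the median error the scanner gives for a Col7a1 spot (0.18). Col16a1, which links fibrils to other matrix and to integrins, had 9.85, 9.52 and 9.24 on feed B, 9.18, 9.23 and 8.55 on feed K and 9.66, 9.66 and 9.81 on feed G. Every mouse of feed K was below every mouse of feeds B and G, and feeds B and G overlapped. Mouse K3 (9.23) and mouse B10 (9.24) lay closer together than the median error of a Col16a1 spot (0.077). The difference of feed G from feed K was 0.72 ± 0.25 (SE; 95% interval 0.15 to 1.29; limma, unadjusted p = 0.0189, adjusted p = 0.960).

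**Figure D2:**
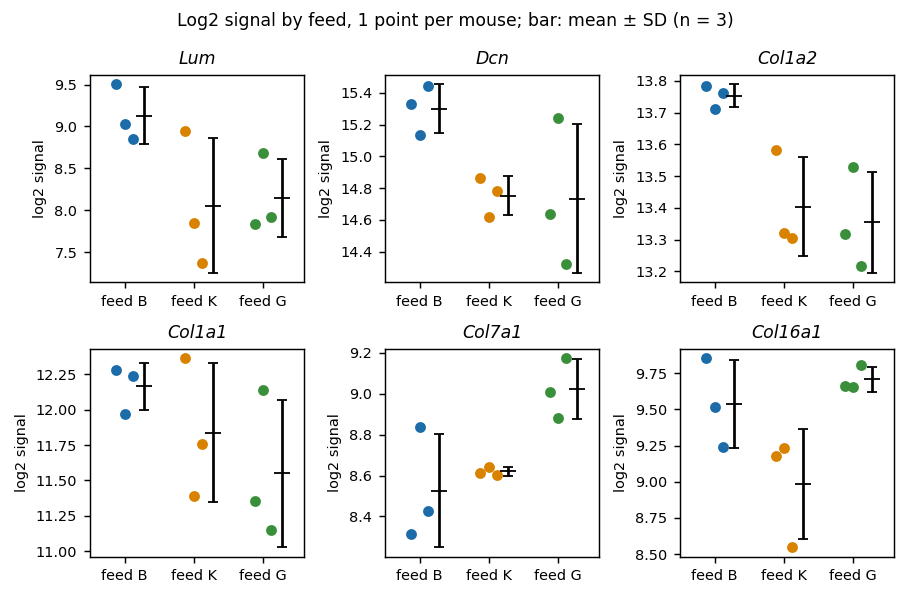
Log2 signal of 6 matrix genes by feed, with 1 point per mouse and the mean ± SD of the 3 mice of a feed beside them; each panel has its own axis. The 3 mice of feed B lie above all others for Col1a2, and those of feed G for Col7a1, while no gene passed the adjusted test.

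Counted over the 28 genes, each pair of feeds separated few of them. For feed K against feed B, an unadjusted p below 0.05 was reached by 1 matrix gene, Lum, compared with 6.31% of all genes. The mice did not overlap for 2 genes that were higher on feed K (Col25a1 by its average, and Fbln1), compared with 6.28% of all genes, and for 4 that were lower (Col16a1, Col1a2, Dcn and Timp2; 14.3% compared with 3.71%). For feed G against feed B, 3 genes had an unadjusted p below 0.05 (Col1a2, Col7a1 and Lum; 10.7% compared with 5.74%). Without overlap, 2 were higher on feed G (Col7a1, and Col25a1 by its average), compared with 6.35% of all genes, and 2 were lower (Col1a2 and Lum), compared with 4.66%. For feed G against feed K, Col16a1 alone had an unadjusted p below 0.05, compared with 4.54% of all genes, and Col16a1, Col5a3, Col7a1 and Timp3 were higher without overlap (14.3% compared with 6.35%) and none lower (background 7.35%). The comparisons share their mice in pairs, so these counts are not independent of each other. At an adjusted p below 0.05 each of the pairs of feeds called 0 matrix genes and 0% of all genes.

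The direction of the 28 genes depended on the scale of the arrays. On feed K 20 of 28 had a mean below that on feed B, compared with 43.1% of all genes, with a median difference of -0.19 against 0.054 over all genes. With median scaling 6 of 28 were below 0, and 13 of 28 in the assay-normalized values of the authors, because these scales move the median of all genes to 0.41 and 0.21. Set against the median of all genes, 21 of 28 were lower on feed K under each of the 3 scales. Many of these genes varied together over the same mice, so they do not count as independent. Mouse K4 was the lowest mouse for 7 of the 22 genes detected on all arrays, and its part in this count was not tested. For feed G against feed B, 15 of 28 were below 0, compared with 42.9% of all genes, and 17 were below the median of all genes (0.061), and the median of the 28 was -0.052. With median scaling the median of all genes was 0.53, and 3 of 28 genes were below 0 and 17 below that median. For feed G against feed K, 11 of 28 were below 0, compared with 50.9% of all genes, with a median of 0.089 against -0.0073 over all genes.

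Several of the main matrix genes did not separate the feeds. Col3a1, the fibrillar collagen that mixes with type I in extensible tissue, had 14.60, 13.86 and 14.92 on feed B, 14.32, 14.66 and 13.47 on feed K and 14.06, 14.82 and 14.17 on feed G, with overlap between all feeds. For Col4a1, a chain of the common type IV collagen, the values were 11.47, 11.16 and 12.24, then 12.04, 11.60 and 10.86, then 11.16, 12.02 and 11.27 on feeds B, K and G. Its partner Col4a2, detected on 8 arrays, had 9.65, 9.42 and 10.18 on feed B, 10.15, 9.80 and 9.63 on feed K, and 9.15, 9.95 and 9.25 on feed G. Neither chain of type IV collagen separated the feeds, and mice B10, K1 and G8 were the highest for both.

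Fibronectin, which binds integrins and collagen, had 10.94, 10.14 and 11.37 on feed B, 10.84, 10.75 and 10.53 on feed K and 10.73, 11.02 and 10.32 on feed G. Sparc, which binds collagen and is needed for its deposition, had 12.86, 12.72 and 13.25, then 13.54, 12.66 and 12.29, then 12.67, 13.22 and 12.24 on feeds B, K and G. Vimentin, the intermediate filament of mesenchymal cells, had 12.67, 11.98 and 13.12, then 12.55, 12.37 and 11.89, then 12.50, 12.99 and 12.05. All feeds overlapped for these genes. Fbln1, a glycoprotein of basement membranes and elastic fibres, had 10.59, 11.68 and 11.49 on feed B, 11.84, 11.96 and 11.74 on feed K, and 11.68, 11.80 and 10.70 on feed G. Mouse B7 and mouse G11 were lowest, and the difference of feed K from feed B was 0.59 ± 0.37 (SE; limma, unadjusted p = 0.146, adjusted p = 0.838). It was 0.26 without mouse B7 and 1.03 with median scaling, where the median of all genes was 0.41 above feed B.

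The inhibitors of metalloproteinases, which restrain matrix breakdown, differed in spread. Timp2 had 10.65, 10.63 and 10.57 on feed B, 10.25, 10.51 and 10.32 on feed K and 10.69, 10.93 and 10.33 on feed G. Timp3, which stays bound to the matrix, had 8.66, 7.17 and 9.0 on feed B, 8.91, 8.81 and 8.45 on feed K, and 9.03, 8.92 and 9.24 on feed G. Mouse B8 was the lowest for Timp3, 1.28 below the next mouse, and the difference of feed G from feed B, 0.78 ± 0.43 (SE; limma, unadjusted p = 0.108, adjusted p = 0.879), was 0.23 without it. Fbln2 was detected in 2 of 3 mice of feed B, in none of feed K and in 2 of 3 of feed G, with 9.11, 8.54 and 9.58, then 8.69, 7.92 and 8.70, then 8.60, 8.75 and 9.0. No fold is given, since the value of mouse B8 is noise. The Fbln2 difference of feed K from feed B had an adjusted p of 0.798 in limma. By its average Col25a1 was higher on feed K than on feed B by 1.87, and by its brighter probe it was lower by 0.15. Against feed B, feed G was higher by its average and lower by 0.050 by the brighter probe.

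**Figure D3:**
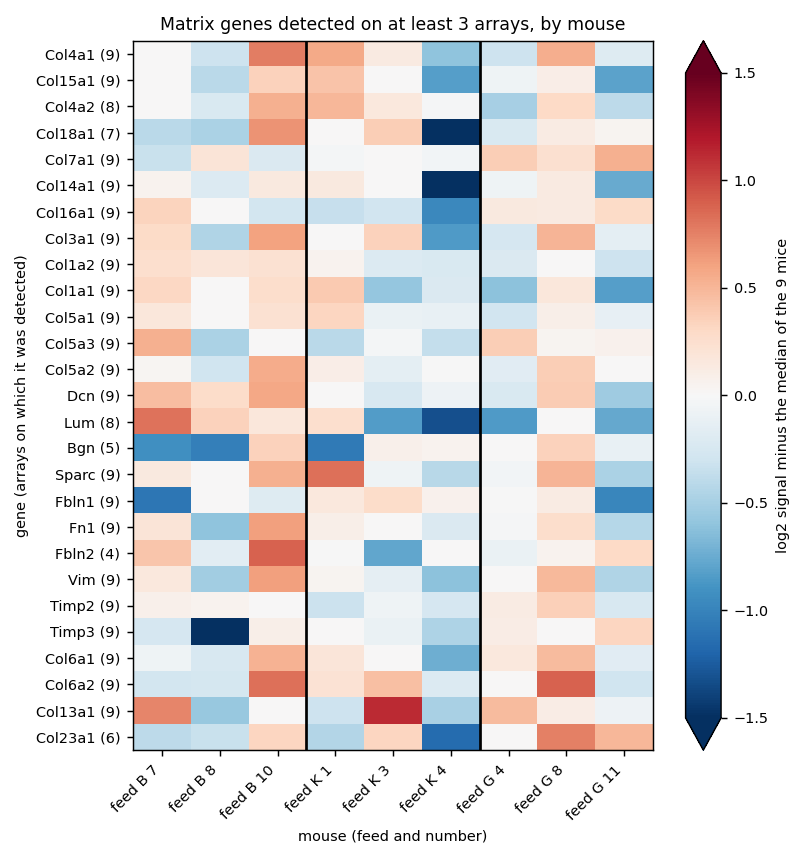
Log2 signal of 27 matrix genes in each mouse minus the gene's median over the 9 mice, red above and blue below, with the number of arrays on which a gene was detected in brackets and genes ordered by kind; the colour scale ends at 1.5 in both directions, and Col25a1 is left out. Columns of mice K4 and B8 are mostly blue and those of B10 and G8 mostly red.

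Over the mice, the matrix genes varied more than most genes. Among genes with a detected signal in every mouse, the median SD over the 9 mice was 0.44 for the 22 matrix genes and 0.29 for all 5887, and 17 of 22 were above that value. Within feeds, the medians were 0.45 and 0.28, and 18 of 22 were above. Compared with genes of like signal, 4 of 6, 3 of 5, 6 of 6 and 4 of 5 matrix genes were above the median SD of their class, from the lowest to the highest of 4 equal classes of signal. The signal of 5 of 22 (22.7%) ranged over up to 2-fold, compared with 57.9% of all genes. These counts are descriptions and were not tested.

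Among these 22 genes, the largest SD beside Col25a1 belonged to Col14a1 (0.70) and Timp3 (0.61), and both rest on 1 mouse. Col14a1 had 9.81, 9.55 and 9.90 on feed B, 9.90, 9.76 and 7.75 on feed K and 9.69, 9.89 and 9.0 on feed G, and mouse K4 lay 1.24 below the next one. Without that mouse the SD of Col14a1 was 0.30, and without mouse B8 that of Timp3 was 0.24. The smallest SD belonged to Col5a1 (0.20), a chain of the collagen that starts fibrils, with 10.48, 10.30 and 10.53 on feed B, 10.62, 10.20 and 10.19 on feed K, and 10.01, 10.39 and 10.17 on feed G. Timp2 and Col1a2 followed, each with an SD of 0.22, and the signal of Col1a2 ranged over 1.48-fold. The 2 chains of type I collagen thus differed in spread, with an SD of 0.46 for Col1a1, on probes whose response may differ.

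Most of this spread was larger than the error of a spot. The error the scanner gives for a spot had a median of 0.061 on the log2 scale over the 22 genes, from 0.017 to 0.18. For 19 of 22 genes the SD over mice was more than 3 spot errors, and it was 5.41 spot errors in the median. The exceptions were Col7a1, Col5a2 and Fn1. The spot error does not hold the labelling and hybridization of an array, for which there was no repeat.

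**Figure D4:**
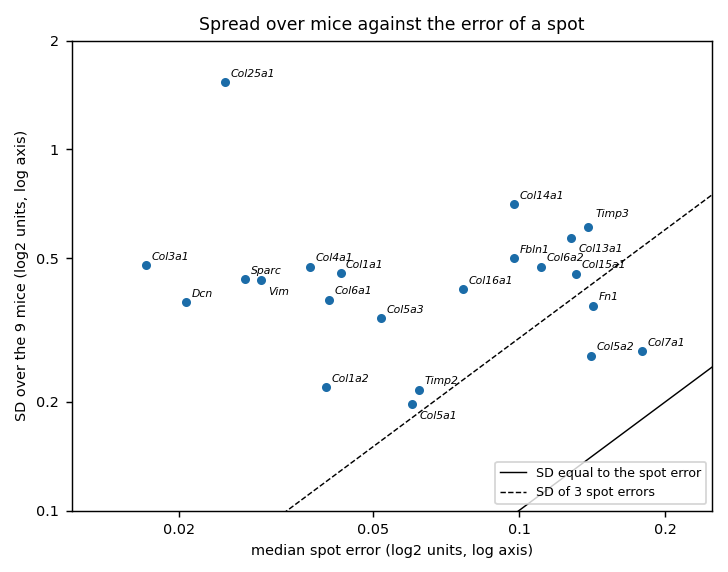
SD of log2 signal over the 9 mice against the median spot error for the 22 matrix genes detected on all arrays, both on logarithmic axes; the solid line marks an SD equal to the spot error and the dashed line an SD of 3 spot errors. All genes lie above the solid line and 19 above the dashed one, with Col25a1 highest because of the failed spot in K4.

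The same mice were high or low for many matrix genes. Of the 22 genes, mouse G8 was above the gene's median for 20, B10 for 15, B7 and K1 for 14, G4 for 8, K3 for 6, G11 for 5, B8 for 4 and K4 for 2. Over all genes these shares lay between 35.5% and 55.5% of genes for every mouse. Mouse K4 was lowest for 7 of 22, compared with 9.85% of genes, B8 for 6 (10.8% of genes) and G11 for 5 (17.3%), while B10 was highest for 7 (10.0% of genes) and K1 for 5 (11.3%). Each feed held at least 1 mouse of the low kind and 1 of the high kind, so that this order ran across the feeds.

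The summed signals of markers of other cell types are given beside that order. The summed signal of the 4 epithelial markers, most of it Fabp2, was 1201710 to 1868410 on feed B, 1445960 to 1761150 on feed K and 1416820 to 2043600 on feed G, in the unlogged units of the normalized signal. It was highest in mouse G11 and next highest in B8, K4 and K3. Those 4 mice also were below the median for most matrix genes, as was G4, whose epithelial sum was lower. The order of the sum is that of Fabp2, and the other epithelial markers shared it only in part. Cdh1 was high in K4 (14.49), B8 (14.41) and G11 (14.26) but lowest in K3 (13.84). Cdh17 and Lgals4 were highest in G11 (16.43 and 16.89), while B8 was low for Cdh17 (15.96) and K4 for Lgals4 (16.48). The 9 smooth muscle markers summed to 117135 to 136028 on feed B, 112537 to 146587 on feed K and 86000 to 141287 on feed G, with the lowest sum in G11. For leukocytes 7 of 8 markers had a probe and summed to 3003 to 5927 on feed B, 1231 to 5643 on feed K and 2670 to 5811 on feed G. For endothelium 6 of 8 had a probe, with 2160 to 3324, 3218 to 3497 and 2650 to 4068 on feeds B, K and G. The 6 pericyte markers summed to 4302 to 6221, 2977 to 4295 and 3599 to 4173, but they did not move together. Against feed B, Notch3 (1.46) and Rgs5 (0.69) were higher on feed G, and Pdgfrb (-2.74), Kcnj8 (-0.88), Abcc9 and Cspg4 were lower. Notch3 was detected in no mouse of feed B and Pdgfrb on 3 arrays. In the F test of limma 3 of 6 pericyte and 2 of 6 endothelial markers had an unadjusted p below 0.05, compared with 5.37% of all genes. None passed after adjustment. The 3 adipocyte markers with a probe, which do not include Adipoq and Plin1, summed to 797 to 2864, 769 to 2699 and 1455 to 1883. Of the 3 mesothelium markers with a probe, Wt1 was detected on no array and the sum was 544 to 1126 over all mice, and the 5 markers of enteric neurons and glia summed to 706 to 1215. Of the 9 fibroblast markers with a probe, 7 belong to the matrix genes themselves. The part of these cell types in the order of the mice was not tested.

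Across the mice, the matrix genes varied together more than genes in general. The 231 pairs of the 22 genes had a median correlation (Pearson r over 9 mice) of 0.35, compared with 0.023 over the 17325441 pairs of genes detected on all arrays. Of the pairs of matrix genes 18.6% had r above 0.7, compared with 4.05% of all pairs. After the feed means were subtracted the median was 0.40, and without Col25a1 it was 0.41. With median scaling the medians were 0.74 for the matrix genes and 0.58 for all pairs. All pairs share the same 9 arrays and their normalization, and these values are a description. Sparc followed the others most closely, with a median r of 0.61 with the other 21 genes, followed by Col4a1 (0.58), Col15a1 (0.56), Vim (0.55) and Fn1 (0.54). The highest single values were 0.93 for Vim and Fn1, 0.92 for Sparc and Col15a1 and 0.91 for Dcn and Col1a2.

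**Figure D5:**
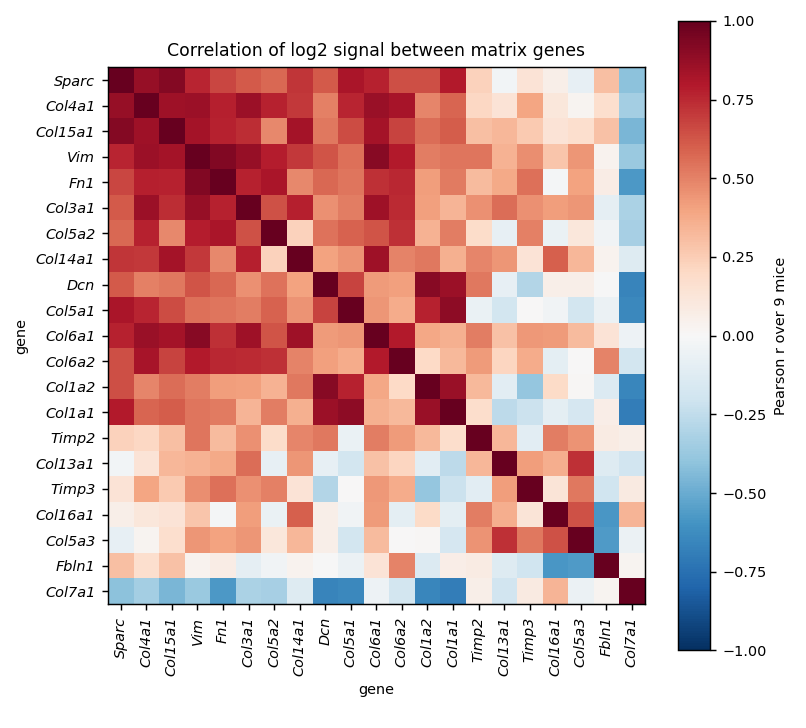
Pearson correlation of log2 signal over the 9 mice between 21 matrix genes, in the order of their median correlation with the others; Col25a1 is left out. The genes from Sparc to Col1a1 are mostly red against each other, Col7a1 is mostly blue, and Fbln1 is pale against most genes.

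Some genes had low correlations in the median. Col7a1 had a median r of -0.31 with the others and its lowest value with Col1a1 (-0.69). Fbln1 had a median r of 0.034, Col5a3 0.12, Col16a1 0.13 and Timp3 0.13. Single values were higher, with 0.73 for Col5a3 and Col13a1, 0.64 for Col5a3 and Col16a1, 0.60 for Col16a1 and Col14a1 and 0.52 for Col5a3 and Timp3. Among the fibrillar collagens, the gene with the highest r was Col5a1 for Col1a1 (0.89), Dcn for Col1a2 (0.91), Vim for Col3a1 (0.87) and Fn1 for Col5a2 (0.81).

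For 9 pairs of genes that share a trimer, a genome neighbourhood or a known binding partner, the correlation over the 9 mice was tested by exact permutation, two-sided, with adjustment over the 9 pairs. The pairs were chosen with earlier results of these data known, so the p-values are not those of a list set in advance. The test is against no correlation, whereas 18.6% of all pairs of matrix genes had r above 0.7. Col1a1 and Col1a2, the chains of type I collagen, had r = 0.86 (exact p = 0.00560, adjusted p = 0.0359) and a Spearman rho of 0.82 (exact p = 0.0108, adjusted p = 0.0485). Without the 2 mice farthest from the median of Col1a1, G11 and G4, r was 0.77, and within feeds it was 0.95. Col1a1 and Sparc had r = 0.79 (exact p = 0.0133, adjusted p = 0.0398) and rho = 0.88 (exact p = 0.00308, adjusted p = 0.0277), with 0.73 without the same mice and 0.83 within feeds. Col6a1 and Col6a2, chains of type VI collagen that lie side by side (chr10:76708792-76726044 and chr10:76595756-76623630, GRCm38.p6), had r = 0.79 (exact p = 0.00797, adjusted p = 0.0359) and rho = 0.78 (exact p = 0.0172, adjusted p = 0.0517), with 0.85 without K4 and B10 and 0.86 within feeds. These 3 pairs had r between 0.71 and 0.90 with any 1 mouse left out, but none kept its adjusted call without B8, B10, K1, G8 or G11. Each gene of these 3 pairs had a higher r with another matrix gene than with its partner. Whether such pairs correlate more than other pairs of matrix genes was not tested.

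The other pairs did not pass. Col3a1 and Col5a2, neighbours on chromosome 1 (chr1:45311538-45349706 and chr1:45374331-45503282), had r = 0.64 (exact p = 0.0627, adjusted p = 0.141) and rho = 0.73 (exact p = 0.0311, adjusted p = 0.0700), with 0.71 without K4 and B10 and 0.62 within feeds. Col1a1 and Col3a1, which share fibrils, had r = 0.34 (exact p = 0.360, adjusted p = 0.405) and rho = 0.40 (exact p = 0.291, adjusted p = 0.328), and Col1a2 and Col3a1 had r = 0.41 (exact p = 0.266, adjusted p = 0.341) and rho = 0.47 (exact p = 0.213, adjusted p = 0.273). The last value depended on the scale, and r of Col1a2 and Col3a1 was 0.96 with median scaling and 0.86 in the authors' assay-normalized values, past the threshold in both. Col1a1 had r = 0.54 with Vim (exact p = 0.139, adjusted p = 0.234), 0.52 with Fn1 (exact p = 0.156, adjusted p = 0.234) and 0.18 with Timp2 (exact p = 0.646, adjusted p = 0.646), and rho of 0.58, 0.63 and -0.033 (exact p = 0.108, 0.0760 and 0.948). Whether the correlation of Col1a1 with Col1a2 differs from that with Col3a1 was not tested. The pairs Col4a1 with Col4a2 and Lum with Dcn were not computed, since a gene of each was not detected on all arrays.

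Because these genes moved together, the sequences just upstream of their starts are shown for the pairs that passed and for Col3a1, whose correlation with Col1a2 did not pass. The 120 bases before the RefSeq start (GRCm38.p6) are written 5′ to 3′ on the strand of the gene, and capitals mark the letters of the CCAAT box, of the TATAAA box or of the GGGCGG box on either strand. Col1a1 is not in the promoter table used. Col6a2 has 2 starts.
Col1a2, chr6:4505498-4505617, plus strand: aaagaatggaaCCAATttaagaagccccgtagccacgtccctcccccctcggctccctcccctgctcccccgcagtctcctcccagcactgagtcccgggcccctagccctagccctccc
Sparc, chr11:55420081-55420200, minus strand: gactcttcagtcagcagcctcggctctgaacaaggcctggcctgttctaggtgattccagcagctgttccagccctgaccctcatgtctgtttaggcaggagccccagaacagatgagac
Col6a1, chr10:76726045-76726164, minus strand: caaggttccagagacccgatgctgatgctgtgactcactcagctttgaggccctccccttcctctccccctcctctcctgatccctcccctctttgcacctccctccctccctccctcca
Col6a2, chr10:76623405-76623524, minus strand: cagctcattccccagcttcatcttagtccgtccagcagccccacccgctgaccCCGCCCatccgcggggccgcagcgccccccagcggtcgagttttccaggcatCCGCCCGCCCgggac
Col6a2, chr10:76623631-76623750, minus strand: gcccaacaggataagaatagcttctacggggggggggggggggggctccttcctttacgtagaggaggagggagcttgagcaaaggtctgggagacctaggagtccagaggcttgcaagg
Col3a1, chr1:45311418-45311537, plus strand: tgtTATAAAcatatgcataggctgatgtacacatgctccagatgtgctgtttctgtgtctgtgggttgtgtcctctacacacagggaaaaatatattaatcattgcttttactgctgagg

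Col1a2 holds CCAAT, the first Col6a2 window holds GGGCGG on the other strand 3 times, in part overlapping, and Col3a1 holds TATAAA. None of the 3 motifs is in the windows of Sparc and Col6a1 or in the second one of Col6a2. Of the pairs that passed, Col6a1 and Col6a2 are the only one with windows for both genes, and these share no motif. Over the 250 bases before the start, 37 of 47 matrix genes had 41 windows. CCAAT was in 34.1% of them, compared with 33.8% of 32851 windows of all genes, TATAAA in 14.6% compared with 12.4%, and GGGCGG, the core of the GC box, in 58.5% compared with 32.7%. These are counts of letters and were not tested, and they say nothing of binding.

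Genes that make, cut or sense collagen showed the same lack of feed calls. Of 26 listed genes of collagen processing, 23 had a probe and 15 were tested, of which 0 passed the adjusted F test of limma and 2 had an unadjusted p below 0.05. They were Plod1, a lysyl hydroxylase, and Loxl2, which cross-links collagen. Plod1 was detected in no mouse of feed B and in all 3 of feed G. Its mean was higher on feed G by 1.59 ± 0.50 (SE; limma, interval of the difference 0.45 to 2.72, adjusted p = 0.729). No fold is given, since the mean of feed B rests on undetected spots. Loxl2 had 8.14, 7.84 and 7.20 on feed B, 6.77, 7.20 and 6.13 on feed K and 6.82, 7.27 and 6.73 on feed G, with a difference of feed K from feed B of -1.02 ± 0.35 (SE; adjusted p = 0.773). It was detected on 5 arrays, 2 of feed B, 2 of feed K and 1 of feed G, so this difference rests in part on undetected spots. Lox, the founding cross-linking enzyme, was detected on no array.

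Of 18 listed genes of matrix degradation, 17 had a probe and 10 were tested, with 0 adjusted and 2 unadjusted calls, the proteases Mmp16 and Mmp11. Mmp16, which sits in the cell membrane, had 7.91, 8.12 and 7.76 on feed B, 6.45, 7.19 and 5.78 on feed K and 6.31, 5.42 and 5.44 on feed G. It was detected in all mice of feed B and none of feed G. The difference of feed G from feed B was -2.21 ± 0.39 (SE; limma, interval -3.09 to -1.32, adjusted p = 0.417). The values of feed G were also set at each array's lowest detected signal, or at the measured signal where that was higher. The mean of feed B was then 3.76-fold higher, which is a ratio of means and not a lower limit. Mmp11 had 8.43, 8.70 and 8.65 on feed B, 7.78, 7.47 and 6.64 on feed K and 7.66, 8.37 and 6.74 on feed G, and all mice of feed B were above the others (feed K minus feed B -1.30 ± 0.44 (SE), adjusted p = 0.773 in limma). Of 25 listed collagen receptors and genes of TGF-beta signalling, 22 had a probe and 19 were tested, with 0 adjusted and 0 unadjusted calls in the F test. The share of all genes with an unadjusted p below 0.05 in that test was 5.37%.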

How the data were processed

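The authors scanned 9 arrays and deposited a table for each, with a signal intensity per spot (corrected for background and spatially normalized), its standard deviation, a signal-to-noise ratio score and a quality flag. The deposited series table of assay-normalized intensity served as an alternative. After removal of failed spots (flag above 5000), quantile normalization used the arithmetic mean, and log2 values were averaged by gene symbol. Feeds were compared with limma 3.58.1 in R 4.3.3 (lmFit, eBayes, Benjamini-Hochberg at 0.05) over 9652 genes detected on at least 3 arrays, and exact permutation tests used scipy 1.17.1 in Python 3.11.15. Positions and promoters are RefSeq's (GRCm38.p6), matched by symbol for 47 and 37 of 47 genes. The fits were tested on simulated data. Each array is 1 mouse, and their number limits the precision.

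All matrix genes may be named. Values per mouse are given for a fixed list, the 5 smallest p of the F test, the 3 largest and 3 smallest SD, and of the other pathways the genes with an unadjusted p below 0.05. Members, lists, pairs and rules were chosen with earlier results of these data known. Alternatives were other scalings, other handling of probes and spots, other filters and tests, and leaving out each mouse.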

Additional observations from a re-analysis of the deposited data

Results flagged for a closer look

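In 3 of the 22 genes detected on all arrays, 1 mouse stood apart from the other 8. The gap to the nearest mouse divided by the whole range was 0.579 for Col14a1 (mouse K4, low), 0.618 for Timp3 (mouse B8, low) and 0.865 for Col25a1 (mouse K4, high by its average), each above the limit of 0.493 of Dixon's test at 9 values. Chance alone flags about 1 in 20 genes, or 1.1 of 22. The Col25a1 value rests on the failed spot of its dimmer probe, and by the brighter probe mouse K4 was the lowest. Mice K4 and B8 also were the lowest for 7 and 6 of the 22 genes.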

How the results depend on the processing

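Adjusted calls among the matrix genes were 0 in the F test and in each pair of feeds under every alternative run. Unadjusted calls were 0 to 3 in the F test (3.98% to 11.2% of all genes), 0 to 3 for feed K against B (4.12% to 12.7%), 0 to 5 for G against B (4.44% to 18.6%) and 0 to 2 for G against K (2.97% to 6.47%). For G against B they were 5 (17.9%, compared with 4.63% of all genes) without mouse G8, 2 with median scaling (18.6% of all genes) and 0 without B7, G4 or G11. In the F test they were 0 without K4, G4 or G11, for K against B 0 without K4 or B7, and for G against K 0 without K4. Exact permutation for a pair of feeds was not counted, because its smallest p is 0.1. No paired analysis was possible because any pair of feeds shares at most 1 mouse number.

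With median scaling, the Col1a2 differences reversed to 0.059 (K minus B) and 0.13 (G minus B). With the brightest probe, Col25a1 reversed to -0.15 and -0.050, and G minus B was -3.05 without spots whose signal was below their noise. The median SD of the matrix genes was 0.61 with median scaling (all genes 0.44) and 0.54 in the series table (0.39), and the median correlation 0.74 (all pairs 0.58) and 0.67 (0.42). At a signal-to-noise ratio of 5, 14 genes were detected on all arrays. Leaving out Col25a1, chosen after seeing the data, is given in the report.

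Col1a2 with Col3a1 passed at 0.96 with median scaling and 0.86 in the series table, Col3a1 with Col5a2 at 0.88 and 0.89, and Col1a1 with Fn1 (0.71) and Vim (0.73) with median scaling. Over all alternatives run, other scalings among them, the lowest r of Col1a1 with Col1a2 was 0.69. With 1 mouse left out, r was 0.82 to 0.90 for Col1a1 with Col1a2, 0.72 to 0.90 for Col6a1 with Col6a2 and 0.71 to 0.85 for Col1a1 with Sparc. Each lost its adjusted call without B8, B10, K1, G8 or G11, and Col1a1 with Sparc also without K3, at 8 mice each. Col3a1 with Col5a2 ranged from 0.50 to 0.80 and passed without K4, and Col1a1 with Timp2 from -0.045 (without G11) to 0.50.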
